A study of Mus musculus with 8 samples.

Results

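The genes described here are the mouse zinc finger genes whose symbols run from Zfp600 to Zfp999, as measured in NIH3T3, a permanent fibroblast line from mouse embryos. They were chosen by name. The rule took every probe of a RefSeq mRNA (an accession starting with NM_) whose symbol is Zfp and a number from 600 to 999. It used no measured value, but it was set with earlier results of these data known. The rule gave 135 genes, out of 20030 genes with such accessions on the array, and 198 probes for them. Of the 135 accession sets, 134 matched a current RefSeq entry and 133 kept the same symbol, while Zfp607 is now Zfp607a. The cells were grown in 10% newborn bovine serum and starved for 24 h in 0.5% serum. In the serum group (3 arrays) the starved cells received 0.1% DMSO and, 60 min later, serum for 30 min. The cordycepin group (3 arrays) had 20 µM cordycepin in place of DMSO alone, also 60 min before the 30 min of serum, so that exposure to cordycepin lasted 90 min. The no serum group (2 arrays) was starved and given no serum, and its labels do not say separately whether it received DMSO. No array of cordycepin without serum was analysed here, and all cells were of 1 line.

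Zinc finger proteins of this class bind DNA through repeated Cys2His2 fingers, each folded around a zinc ion and joined to the next by a short conserved linker. Many also carry a KRAB domain, through which they recruit the corepressor TRIM28 and the histone methyltransferase SETDB1, above all to transposable elements. Their genes lie in clusters that grew by duplication, and their mRNAs are as a class short-lived, which makes them a group of interest when RNA synthesis or 3′ end formation is disturbed. The members were chosen by symbol and their protein sequences were not examined, so this background need not hold for each of them. Cordycepin is 3′-deoxyadenosine, an analogue of adenosine that can be built into RNA but has no 3′ hydroxyl for further extension.

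A single slide held all 8 arrays. The 75th percentile of signal ranged from 302 to 692 units, with the lowest value on cordycepin replicate 1, and between 51.1% and 57.1% of the probes passed the scanner's background test. Within groups the arrays correlated across probes at 0.992 to 0.995. All 10 fibroblast markers (such as Col1a1, Vim and Thy1) were above background on all 8 arrays, and none of them was called with cordycepin. Of the 14 markers of epithelial, endothelial, leukocyte, muscle and neuronal cells on the array, 5 were above background on all arrays (Krt14, Pecam1, Kdr, Cd3e and Syp) and 5 on none. Signals are given as log2 values in which 0 is the array's 75th percentile. They compare arrays at 1 probe. The order of probes by signal is used only to pick a gene's probe, to form tiers and to name the brightest probes, and it is not an order of abundance. A difference was called where the adjusted p of limma was under 0.05 and the fold at least 2, and each gene was represented by its tested probe of highest mean signal. In bulk RNA, fewer cells with a transcript and less transcript per cell cannot be told apart.

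Of the 135 genes, 127 had a probe bright enough to be tested. The 8 without one were Zfp612, Zfp616, Zfp641, Zfp711, Zfp735, Zfp750, Zfp831 and Zfp879, none of which was above background on more than 1 array. Since a gene could pass this filter through 1 group alone, the counts that follow describe the 127 genes tested and not all members.

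The first comparison asked what cordycepin did to these mRNAs in serum-stimulated cells. With cordycepin, 16 of the 127 genes were called lower (12.6%) and 4 higher (3.15%). Over all 30857 probes tested, 2.99% were called lower and 7.56% higher. Among the 13293 other mRNA genes, represented in the same way by 1 probe each, 2.48% were called lower and 3.62% higher. The direction of calls was thus mostly down among the zinc finger genes and mostly up among all probes. Taking all 182 tested probes of the members in place of 1 per gene, 21 were called lower and 5 higher.

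The shift was not limited to the called genes. The median log2 fold change of the 127 genes was -0.28, with quartiles of -0.66 and 0.02, against 0.06 for the other mRNA genes and 0.09 for all probes. A change below 0 was measured for 91 of the 127 genes (71.7%), and for 41.5% of the other mRNA genes. By the adjusted p alone, with no minimum fold, 38 genes were lower and 6 higher, where 7.71% of all probes were lower and 11.7% higher. The median of the members lay at -0.42, -0.26 and -0.25 on cordycepin replicates 1, 2 and 3, each against the mean of the serum arrays. No p is given for these medians, which describe the list. The other 195 numbered zinc finger genes tested, with symbols outside this range, had a median of -0.28. Of them, 25 were called lower (12.8%) and 1 higher (0.513%), beside 12.6% and 3.15% of the members.

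**Figure D1:**
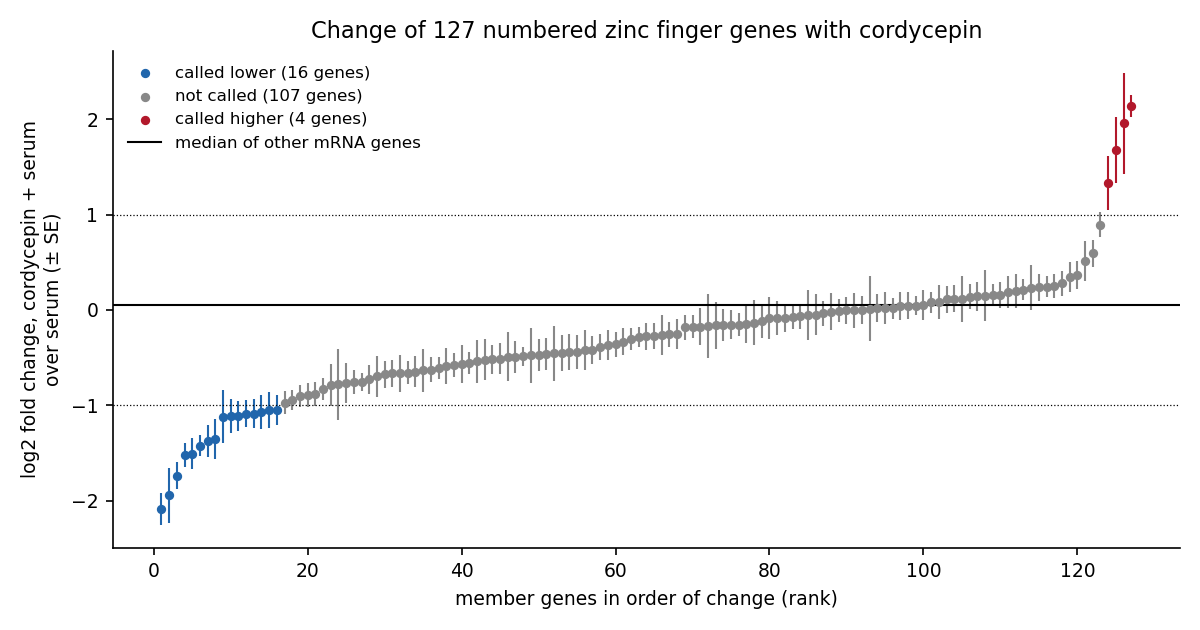
Log2 fold change (cordycepin plus serum over serum, vertical axis) of the 127 tested genes in order of size (horizontal axis), as points with bars of ± 1 SE from limma. Dotted lines mark a 2-fold change, the solid line marks the median of the other mRNA genes (0.06), and the 16 genes called lower and the 4 called higher stand at the ends of a distribution centred below that line (median -0.28).

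The groups themselves were well separated for many genes. In 58 of the 127 genes every cordycepin array lay below every serum array, which held for 13.9% of all probes, and in 12 every cordycepin array lay above, which held for 25.0% of all probes. Set against all 5 other arrays, with and without serum, the cordycepin arrays were lowest in 53 genes and highest in 6. The shares for all probes were 9.81% and 19.4%.

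Zinc finger genes tend to give dim probes, so their fall was compared with that of other mRNAs of like signal. The 13420 mRNA genes were split into 4 tiers at the quartiles of mean normalised signal over the 8 arrays. In the dimmest tier 9 of 41 members were called lower (22.0%), against 2.41% of 3314 other mRNA genes, and the median log2 fold changes were -0.45 and 0.08. The second tier had 4 of 52 members called lower (7.69%) against 3.57%, with medians of -0.16 and -0.01. The next had 2 of 24 (8.33%) against 2.13%, with medians of -0.41 and 0.03. In the brightest tier 1 of 10 members was called lower (10.0%) against 1.82%, and both medians were above 0, at 0.07 and 0.11. A median below that of other mRNAs was therefore measured in each tier, with the gap smallest among the bright genes, where only 10 members were available. The mean over the 8 arrays includes the cordycepin arrays, so a fall itself moves a gene towards a dimmer tier. With tiers from the arrays without serum, the shares of members called lower were 14.3% (5 of 35), 12.7% (7 of 55), 7.69% (2 of 26) and 18.2% (2 of 11) from the dimmest to the brightest, against 2.17%, 3.58%, 2.43% and 1.76% of other mRNA genes. The share was then highest in the brightest tier, which had the fewest members. The medians of the members were -0.37, -0.16, -0.47 and 0.018, again below those of the other mRNA genes in each tier. With tiers from all arrays, the same order of medians was measured in each tier with normexp correction and quantile normalisation, but the size varied. Spike-in centring moves all probes of an array by the same amount, so it could not change this order. The dimmest members had a median of -0.09 with normexp, and the brightest were at -0.056 with quantile normalisation. With spike-in centring none of the 24 members of the next to brightest tier was called lower, against 0.87% of other mRNA genes. The rises were differently placed. All 4 members called higher were in the dimmest tier, in which 12.3% of other mRNA genes were also called higher.

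**Figure D2:**
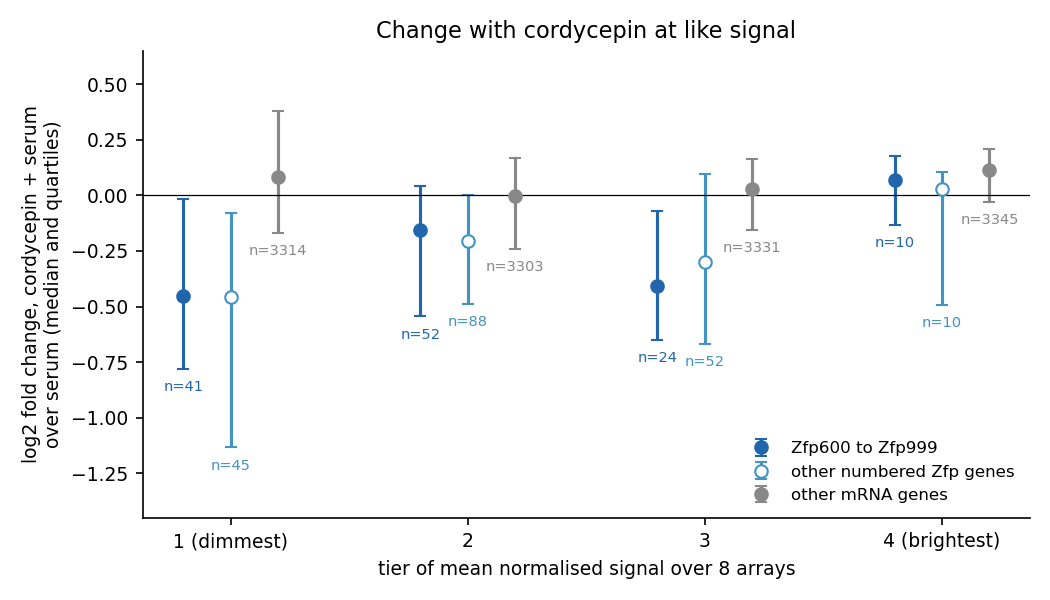
Median and quartiles (bars) of the log2 fold change with cordycepin in 4 tiers of mean signal, for the genes Zfp600 to Zfp999, for other numbered zinc finger genes and for all other mRNA genes, the second set being part of the third. The members lie at -0.45, -0.16, -0.41 and 0.07 from the dimmest to the brightest tier, and the other mRNA genes between -0.01 and 0.11.

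The counts depended on the scaling. With normexp background correction 8 genes were called lower (6.30%, against 1.78% of other mRNA genes and 1.32% of all probes) and 1 higher. With centring on 9 spike-in probes 4 were called lower (3.15%, against 1.17% of other mRNA genes and 1.25% of all probes) and 3 higher. The median of the members minus that of other mRNA genes was -0.19 with normexp on the log2 scale, against -0.33 before. Spike-in centring moves all probes of an array by the same amount, so it left this difference at -0.33 by construction. Without cordycepin replicate 1, the array of lowest signal, 10 genes were called lower (7.87%). The shares then were 2.35% of other mRNA genes and 2.91% of all probes.

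The largest fall was that of Zfp607, measured at position 3086 of its transcript and at chr7:28665420-28665479 (mm9, as are all coordinates given here). Its signal was -0.89, -1.25 and -1.14 on the serum arrays, -3.14, -3.40 and -3.00 on the cordycepin arrays, and -0.56 and -0.12 without serum. The cordycepin arrays thus lay well below all others. The fall was 4.25-fold (log2 -2.09, SE 0.17, adjusted p = 8.70e-05 by limma). Zfp799, measured at chr17:32954618-32954677, followed at a log2 fold change of -1.94 (SE 0.29, adjusted p = 0.00190). It had values of -0.95, -1.64 and -1.12 with serum and -3.83, -2.93 and -2.78 with cordycepin, and its 2 arrays without serum read -1.11 and -1.08. For this gene, too, no cordycepin array reached the level of any other array.

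Zfp655 encodes a Krüppel-type protein first described as a partner of the signalling protein VAV. It was the only 1 of the falling genes in the brightest tier. Its probe at chr5:146008104-146008163 gave 4.46, 4.65 and 4.19 with serum and 2.66, 2.73 and 2.70 with cordycepin, against 3.91 and 4.12 without serum. The groups did not overlap, and the fall was 3.33-fold (log2 -1.74, SE 0.14, adjusted p = 8.10e-05).

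Zfp800 was measured by a pair of probes close together in its transcript, and both were called. At chr6:28189988-28190047 the serum arrays read -0.21, -0.16 and -0.32 and the cordycepin arrays -1.64, -1.75 and -1.87, a log2 fold change of -1.52 (SE 0.13, adjusted p = 9.96e-05). The dimmer probe at chr6:28190240-28190299 gave -1.67 (SE 0.13). Zfp800 was the only gene with several tested probes of which every one was called lower.

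Zfp830, which encodes a protein needed in early embryos and associated with pre-mRNA splicing factors, had little spread between replicates. It read 0.39, 0.44 and 0.45 with serum, -1.12, -0.97 and -0.90 with cordycepin, and 0.33 and 0.49 without serum. Serum alone thus left its signal within 0.02 of the unstimulated mean on the log2 scale, and the fall with cordycepin was 2.68-fold (log2 -1.42, SE 0.11, adjusted p = 6.87e-05). With spike-in centring the adjusted p of Zfp830 from limma was 0.0777, which ended its call. Zfp644 encodes a partner of the histone methyltransferases G9a and GLP. Its signals were 2.48, 2.64 and 2.40 with serum and 1.07, 1.52 and 1.60 with cordycepin, a log2 fold change of -1.11 (SE 0.16, adjusted p = 0.00152). The unstimulated values of 2.26 and 2.32 also lay above all 3 cordycepin arrays. Without cordycepin replicate 1 the change of Zfp644 was -0.94, short of the minimum fold. With spike-in centring its adjusted p from limma was 0.314, which also ended its call.

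The other genes of the 10 largest falls were Zfp953 (log2 fold change -1.50, SE 0.16), Zfp873 (-1.37, SE 0.17), Zfp867 (-1.35, SE 0.21) and Zfp839 (-1.12, SE 0.28). With normexp Zfp953 was at -0.51 and Zfp873 at -0.43, which ended both calls, and with spike-in centring their adjusted p from limma were 0.0504 and 0.0974. That of Zfp867 was 0.109 with spike-in centring, which ended its call. Zfp839 was the least secure of them, since cordycepin replicate 3, at -3.55, lay close to its serum arrays at -3.27, -2.91 and -3.21. Leaving out any of 4 arrays (serum replicate 2 or 3, cordycepin replicate 1 or 2) ended its call, as did spike-in centring, no filter on dim probes, the slide row as a block and normexp, with which it was at -0.23. Zfp951, Zfp768, Zfp709, Zfp623, Zfp846 and Zfp960 completed the 16, with log2 fold changes between -1.12 and -1.05. Each of them lost its call with spike-in centring, and each but Zfp768 with normexp. Without cordycepin replicate 1, Zfp709, Zfp623, Zfp846 and Zfp960 also lost their calls. Zfp960 lost its call without serum replicate 1 or 3 as well. The probe of Zfp960 is also annotated to Zfp97, so these 2 genes cannot be told apart there.

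**Figure D3:**
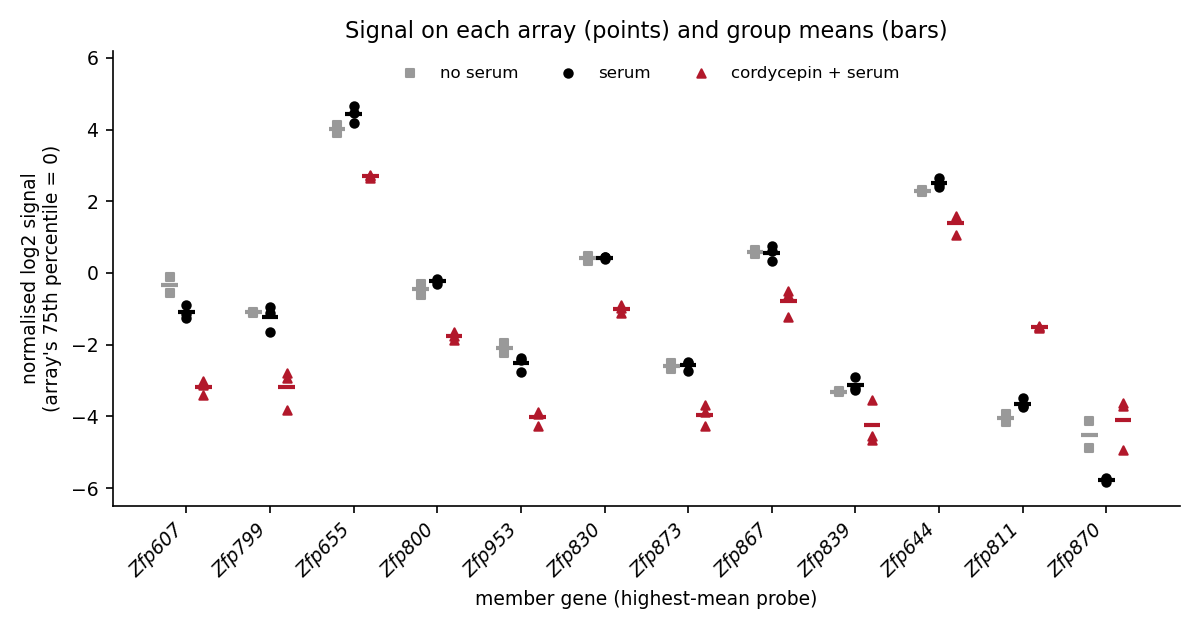
Normalised log2 signal (0 is the array's 75th percentile) of the 10 genes with the largest falls and of Zfp811 and Zfp870, which were called higher, on each array (points) with the mean of each group (bars). For each of the 10 falling genes all cordycepin points lie below all serum and no serum points (group means of -3.18 against -1.09 for Zfp607), whereas those of Zfp811 lie above.

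In 4 genes the signal was called higher with cordycepin. Zfp811 was the only 1 of them above background on every array of both groups. It rose from -3.50, -3.73 and -3.70 with serum to -1.50, -1.55 and -1.49 with cordycepin, with -4.17 and -3.93 without serum, so that the groups were far apart relative to their spread. The rise was 4.39-fold (log2 2.13, SE 0.12, adjusted p = 1.73e-05), at chr17:32934542-32934601. The probe of Zfp799, which fell, lies nearby on the same strand of this chromosome. Zfp870 passed the background test on none of the serum arrays and on 2 of the 3 cordycepin arrays, and its signal was at least 2.26-fold higher with cordycepin (adjusted p = 0.0105). Its 2 arrays without serum, at -4.89 and -4.14, lay within the range of the cordycepin arrays (-4.93 to -3.63). With normexp the log2 fold change of Zfp870 was 0.55, which ended its call. Zfp819 and Zfp775 were called higher at log2 fold changes of 1.96 (SE 0.53) and 1.33 (SE 0.29), with 1 and 2 of their serum arrays above background. The call of Zfp819 ended with normexp, quantile normalisation or no filter on dim probes, and without serum replicate 2 or 3 or cordycepin replicate 1 or 2. That of Zfp775 ended with normexp, spike-in centring and without cordycepin replicate 1.

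Zfp628, Zfp622, Zfp663, Zfp658 and Zfp771 had the highest mean signals, and none of the 5 was called at its brightest probe. With 12.6% of the 127 genes called lower, so few genes without a call do not set the brightest members apart. A dimmer probe of Zfp628, described below, was called lower. Zfp622, which encodes a factor for maturation of the large ribosomal subunit, read 6.68, 6.97 and 6.70 with serum and 7.02, 6.64 and 6.75 with cordycepin, overlapping groups with a difference of 0.02 (SE 0.15, adjusted p = 0.947). Zfp771 differed by -0.01 (SE 0.12) and Zfp658 by 0.37 (SE 0.15, adjusted p = 0.137). Zfp663 was higher by 0.59 (SE 0.15, adjusted p = 0.0229), below the minimum fold. The probe of Zfp658 differed from a probe of Aoc2, an amine oxidase gene, by 10 edits in 60 bases, and how much of its signal came from that mRNA was not tested.

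For 44 genes 2 or more probes were tested, 99 in all, and the probes of 1 gene differed by a median of 0.23 in log2 fold change. In 36 of these genes no probe was called, and in 7 the probes were called differently. Zfp867 was the extreme case. Its probe at transcript position 2747 fell from 0.62, 0.34 and 0.74 to -1.24, -0.50 and -0.62, and its dimmer probe at position 3327 rose from -3.27, -4.03 and -3.68 to -1.33, -1.55 and -1.55. These are log2 fold changes of -1.35 (SE 0.21, adjusted p = 0.00224) and 2.18 (SE 0.19, adjusted p = 0.000130) at chr11:59275304-59275363 and chr11:59274724-59274783 on the minus strand. The upstream probe holds the letters of the poly(A) signal AATAAA, and the rising probe lies downstream of it in the deposited transcript. The downstream signal differed by -1.05 between serum and no serum (adjusted p = 0.0503), and in the cordycepin group it exceeded the no serum arrays (-2.71 and -2.50) as well.

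Zfp866 and Zfp628 showed the largest falls of any member probe, but not at the probe of highest signal. Zfp866 was measured at 3 positions. The probe at position 2255 went from 0.60, 0.42 and 0.89 with serum to -2.13, -1.84 and -1.49 with cordycepin (log2 fold change -2.45, SE 0.19, adjusted p = 7.69e-05), while those at positions 340 and 5577 changed by -0.33 (SE 0.21) and -0.57 (SE 0.12), both in the same direction and short of a call. For Zfp628 the probe at position 3352 went from 1.10, 0.97 and 1.10 to -1.48, -1.35 and -1.29 (-2.43, SE 0.11, adjusted p = 8.80e-06). At position 964, where the probe is 86.7% G and C, the same gene read 9.03, 9.38 and 9.07 with serum and 9.58, 9.14 and 9.34 with cordycepin (0.19, SE 0.17). The signal of this probe was the highest among the members and overlapped between groups.

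Other genes, too, had a called and an uncalled probe in the same direction. In Zfp655 the probes at positions 629 and 1705 gave -0.36 (SE 0.10) and -0.66 (SE 0.14), with adjusted p of 0.0432 and 0.0125 from limma, beside -1.74 at position 4000. Zfp941 gave -0.37 (SE 0.16) at position 2036 and -1.73 (SE 0.23, adjusted p = 0.00101) at position 3750. In Zfp809, which encodes a KRAB protein that silences retroviral DNA in mouse embryonic cells, it was the upstream probe that was called, with -1.06 (SE 0.12, adjusted p = 0.000449) at position 1111 and -0.49 (SE 0.26) at position 1211. There was no common direction along the transcript. Over the 44 genes, the most downstream probe had the higher log2 fold change in 19 and the lower in 25.

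**Figure D4:**
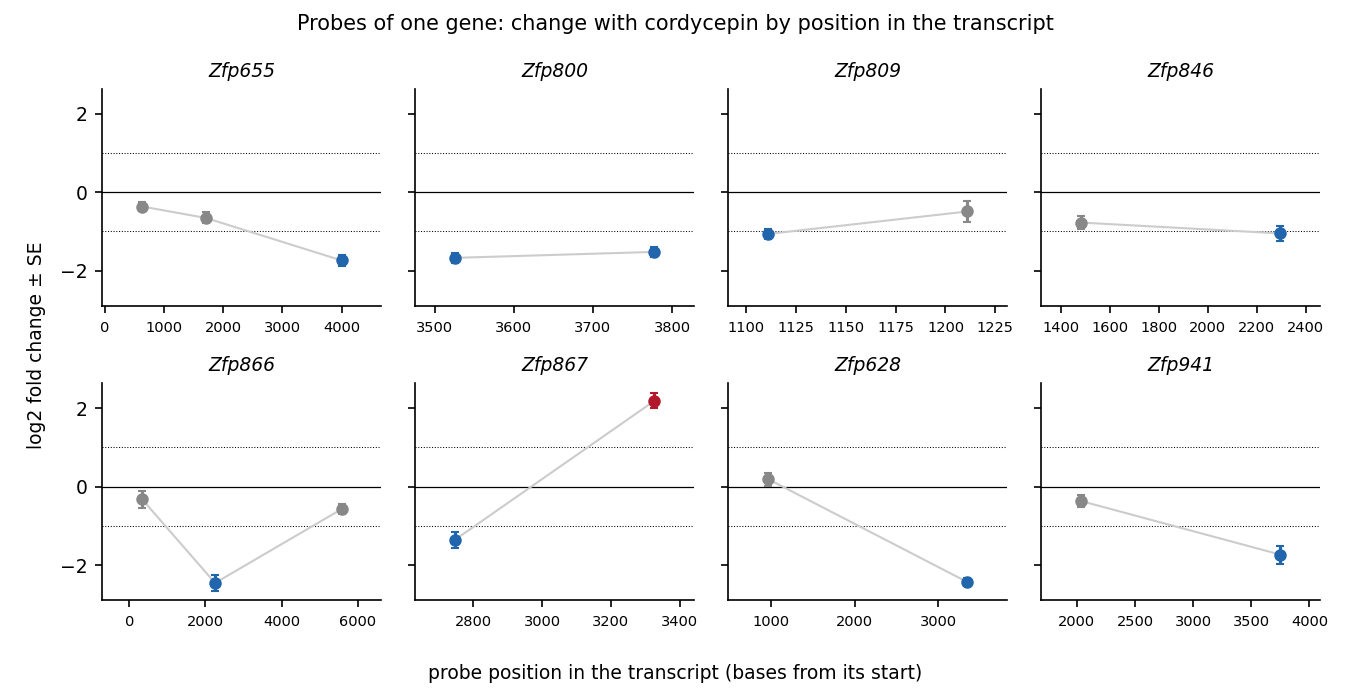
Log2 fold change with cordycepin (± SE, vertical axis) of every tested probe of 8 genes with at least 1 called probe, against the probe's position in the transcript in bases (horizontal axis). Blue points were called lower, the red point higher and grey points not called; only in Zfp867 do the probes go opposite ways past the minimum fold (-1.35 and 2.18).

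The sequences of the probes show what part of each mRNA was measured. Of the 182 tested member probes, 24 encode finger residues in an open frame. Of the remaining probes, 32 hold the letters of a poly(A) signal (AATAAA or ATTAAA on the sense strand) and 126 do not. The finger-coding probe of Zfp809 also holds AATAAA, so 33 probes hold these letters in all. Finger-coding probes are shown because they carry the repeat that the family shares. In the first 3 the capitals mark the codons of the linker between adjacent fingers, and in the last the codons of a pair of zinc-binding histidines.
Zfp933: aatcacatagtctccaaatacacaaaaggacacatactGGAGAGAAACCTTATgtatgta
Zfp936: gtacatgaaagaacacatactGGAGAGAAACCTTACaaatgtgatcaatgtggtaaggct
Zfp941: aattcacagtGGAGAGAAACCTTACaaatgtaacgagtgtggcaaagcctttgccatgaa
Zfp809: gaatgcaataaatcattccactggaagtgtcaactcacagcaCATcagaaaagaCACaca

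Their log2 fold changes with cordycepin were -0.84, -0.42, -0.37 and -1.06 in this order, and the last, which was shown for its call, was the only 1 of the 24 called (4.17%). Over the 24 finger-coding probes the median was -0.40, with 20 of them below 0. Another 66 finger-coding probes, found by the same search among mRNA probes of other genes, had a median of -0.34 and 53 below 0, and 6 of them were called lower (9.09%). The linker codons were identical in Zfp936 and Zfp941, whose probes otherwise differ. Only 4 tested member probes were within 12 edits of a probe of another gene, and none of these 4 was called. This search compared probes with probes and not with whole transcripts, so it does not measure how far other mRNAs could bind a probe.

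Among the 33 probes with the letters of a poly(A) signal, 7 were called lower (21.2%) and 1 higher (3.03%), with a median of -0.17. Of 3301 such probes of other mRNAs, 2.00% were called lower and 132 probes higher, with a median of 0.11. Of the 126 member probes with neither these letters nor finger codons, 14 were called lower (11.1%), with a median of -0.22. The share called lower was 2.50% for such probes of other mRNAs. With 1 probe per gene, that of highest mean signal, 4 of 25 members with the letters were called lower, against 12 of 90 with neither. These shares lay closer together than those over all member probes. Short stretches of the 6 probes with the letters that were called lower, beside that of Zfp809, are shown, with the signal in capitals.
Zfp866: gcccgtgctcaataagcccaATTAAAgtca
Zfp655: ttttgtacttctacttgAATAAAggtgtgt
Zfp800: tatatgtgatgaAATAAAccagactaaaag
Zfp953: tcggattgtctcAATAAAgaactgatggcc
Zfp867: atcagtgtgtagAATAAAgtgtttcagtta
Zfp644: cagaattactgaAATAAAtgtgctgtgagg

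The same letters are present in bright members that were not called, such as Zfp622 and Zfp771. Genes that were called and genes that were not thus both had probes with these letters.

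By position in the genome, the members were most numerous on chromosome 7 (32 genes), chromosome 17 (18) and chromosome 8 (15). On chromosome 7, 24 of 32 tested genes were below 0 with cordycepin, with a median of -0.35. The 2 called lower there (6.25%) stand beside 3.72% of the other mRNA genes of the chromosome, and 1 was called higher. On chromosome 17 the median was -0.10, and the chromosome held 2 genes called lower (Zfp799 and Zfp960; 11.1%, against 3.05% of its other mRNA genes) and 2 called higher (Zfp811 and Zfp870). All 5 tested genes of chromosome 11 but 1 were below 0 (median -0.73). The 16 genes called lower came from 11 chromosomes. Split by symbol instead, the genes up to Zfp699, Zfp799, Zfp899 and Zfp999 had medians of -0.16, -0.44, -0.26 and -0.28.

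The second comparison asked what 30 min of serum did to the members. None of the 127 genes was called in either direction by limma, where 0.898% and 0.878% of all probes were called lower and higher. At an unadjusted p under 0.05, 11 genes were lower (8.66%) and 3 higher (2.36%). The shares were 6.11% and 4.19% of all probes, and 2.29% and 3.97% of the other mRNA genes. Of the other numbered zinc finger genes, 8.72% were lower and 3.59% higher. The median of the members was -0.07, with that of the other mRNA genes close to 0. The lowest adjusted p was that of Zfp607, 0.109, at a log2 difference of -0.75. At probe level the dimmer probe of Zfp606 was called lower. It read -3.51, -3.44 and -3.34 with serum and lay higher, at a mean of -2.00, without serum (log2 fold change -1.43, adjusted p = 0.00509). The brighter probe of Zfp606 differed by -0.23 and was not called.

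The third comparison set cordycepin plus serum against no serum, and it shares the cordycepin arrays with the first and the no serum arrays with the second. Here 19 of the 127 genes were called lower and 2 higher, against 3.08% and 6.46% of all probes. The median of the members was -0.35, with 102 of 127 genes below 0. Zfp607 differed by -2.84 in this comparison, Zfp799 by -2.09, Zfp953 by -1.93, Zfp830 by -1.41 and Zfp655 by -1.32. Zfp787, Zfp668, Zfp703 (a corepressor amplified in some breast cancers), Zfp810 and Zfp786 were called lower here and not in the first comparison. Their differences here were -1.17, -1.03, -1.16, -1.08 and -1.21, beside -0.97, -0.88, -0.83, -0.77 and -0.48 there. Against serum, a dimmer probe of Zfp787 gave -0.81, and a cDNA probe of it outside the rule gave 0.23. Neither was called in the first comparison. Zfp811 and Zfp819 were higher than without serum by 2.54 and 2.09.

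The partners through which KRAB zinc finger proteins repress were examined as a list of 35 corepressor and heterochromatin genes, all of them above background on all 8 arrays. None was called in any of the 3 comparisons, and their median change with cordycepin was 0.01, with 16 of 35 below 0. With cordycepin against serum, 2.48% of other mRNA genes were called lower and 3.62% higher. At such shares, 35 genes without a call do not set this list apart. Trim28, the scaffold that KRAB domains bind, had a mean of 4.65 ± 0.14 with serum and 4.71 ± 0.17 with cordycepin (SD, n = 3 each; adjusted p = 0.768 by limma). Setdb1, the methyltransferase it recruits, was at 0.69 ± 0.17 and 0.66 ± 0.20 (SD, n = 3; adjusted p = 0.909 by limma). By the adjusted p alone 2 genes of the list were lower with cordycepin (5.71%, below the 7.71% of all probes), the chromatin remodeller Smarcad1 (log2 fold change -0.89, SE 0.10, adjusted p = 0.000338) and the SETDB1 partner Atf7ip (-0.43, SE 0.12, adjusted p = 0.0410). A p that misses the threshold does not show that the other genes were unaffected.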

How the data were processed

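Total RNA was hybridised to 8 one-colour Agilent mouse arrays. The authors deposited Feature Extraction output (version 10.7.3.1, probe positions in mm9), in which the intensity of each spot is already background-subtracted, and named limma as their test. Symbols come from the array annotation. Here the log2 intensity was averaged over the non-outlier spots of a probe, and each array was centred on its 75th percentile. A probe entered the test if all arrays of 1 or more groups passed the scanner's background test (30857 of 55681 probes). The fit used limma 3.58.1 (R 4.3.3), 8 arrays, a mean for each group and Benjamini-Hochberg adjustment over every tested probe. Calls required adjusted p below 0.05 and a log2 difference of 1 or more in size. If no array of a group passed the background test, the fold is a bound against the lowest signal that did. The fit was tested on simulated data.

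The members and lists were chosen with earlier results of these data known. The rule for named genes took the 10 largest falls and up to 6 rises, called and above background, up to 4 rises from background, up to 5 calls each way with serum, the 5 brightest genes, up to 6 whose probes disagree, and Trim28 and Setdb1. Any further gene was picked for its values. The labels call the replicates independent, and the number of arrays limits the precision. Members were not grouped by KRAB domain, since no protein table was used here. Alternatives tried were other background corrections, scalings, filters and blocks, and leaving out each array.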

Additional observations from a re-analysis of the deposited data

How the results depend on the processing

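With cordycepin against serum, normexp gave 8 genes called lower and 1 higher, and spike-in centring 4 lower. The offset of normexp shrinks the folds of dim probes, and spike-in centring raised the median SE over all probes from 0.155 to 0.505. With no minimum fold 38 were lower, and with probes above background on all arrays 1 was higher. Leaving out 1 array gave 10 to 17 lower and 2 to 4 higher, both lowest without cordycepin replicate 1. For serum against no serum it gave 0 to 1 lower, the 1 being Zfp870 without cordycepin replicate 1, and 0 higher. Against no serum, 10 genes were lower with normexp, 6 with spike-in centring and 35 with no minimum fold. There, 4 were higher with no minimum fold, and 1 with normexp, quantile normalisation, no filter, the strict filter or only the groups compared, and 1 to 2 when leaving out an array. The median of the members was -0.13 with normexp, -0.39 with quantile normalisation (which moved the median of all probes from 0.09 to 0.00) and -0.33 to -0.22 when leaving out an array. The share of rises among calls over all probes was 71.7%, and 59.7% with quantile normalisation, 81.3% with spike-in centring and 60.5% with the strict filter. In the dimmest tier 4.88% of members were called lower with normexp and also with spike-in centring, which gave 1.92% in the second tier and 0% in the third.

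Of 319 other fits of the named genes, 292 kept direction and call, 17 lost the call and 10 changed sign, the last in 3 bright genes that were not called. These counts do not measure how stable the calls were. Leaving out either array without serum gave the same fit as using only the groups compared, so these fits repeat each other. Genes without a call could not lose one. Called genes outside the named set, several of which lost their calls as described above, are not counted. Zfp628 was at -0.039 with quantile normalisation. Zfp622 was at -0.023 with normexp, -0.097 with quantile normalisation and -0.091 to 0.11 when leaving out an array, and Zfp771 was at 0.017 with spike-in centring and -0.095 to 0.061 when leaving out an array. With the replicate number as a block, 16 genes were lower and 4 higher with cordycepin, and no call was lost. Same-numbered arrays deviated together with correlations of -0.17 to 0.23, so the numbers were not taken to pair the arrays. Depth is not defined for arrays, and dim probes limit the folds that can be seen.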
